A study of Mus musculus with 24 samples.

Results

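The villi and the crypts of wild-type mouse small intestine were compared on 6 arrays, 3 of villi and 3 of crypts, out of 24 arrays in the study. The arrays were chosen by their titles (WT-1-villi to WT-3-villi and WT-1-crypts to WT-3-crypts), and the comparison ran over 18193 genes. The WT mice were of strain C57BL/6;FVB and 2 months old, and their intestines were taken 7 days after an intraperitoneal injection of beta-napthoflavone, a ligand of the aryl hydrocarbon receptor. The age, the injection and the day of collection were the same in every genotype. Villi and crypts of untreated mice were therefore not measured here. The other genotypes, used below only where they show how the wild-type difference stands apart, were Rb (Rb-/-), TKO (E2f1-/-, E2f2-/- and E2f3-/-) and QKO (E2f1-/-, E2f2-/-, E2f3-/- and Rb-/-), also with 3 villus and 3 crypt arrays each. The labels name neither the driver of the deletions nor the way villi were parted from crypts, and they do not say whether arrays came from separate animals. The p-values therefore measure the spread between arrays, which may be technical.

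The small intestinal lining renews itself without pause. Stem cells at the crypt base, lodged between Paneth cells, feed a zone of rapidly dividing progenitors, whose daughters stop dividing, differentiate and move onto the villus, where absorptive enterocytes digest and take up nutrients until they are shed at the tip. Wnt and Notch signals dominate in the crypt and Bmp signals towards the villus, and E2f transcription factors, restrained by Rb and its relatives, switch the genes of DNA replication on and off around exit from the cell cycle.

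Values are log2 expression levels, which span 2.29 to 14.9 in the deposited data. They compare a gene between arrays and not 1 gene with another. Differences are villi minus crypts on that log2 scale, given with the SE of a limma fit over all 24 arrays and a p adjusted over all genes. A gene is said to rise or fall in villi where its adjusted p was under 0.05. A bulk sample cannot tell fewer cells of a type from less RNA per cell, and this holds for every group of genes below.

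The labels were checked with compartment markers and with Rb1, and 1 array stood apart. The brighter Rb1 probe set read 10.70, 10.93 and 10.74 in villi, against 10.31, 10.59 and 8.46 in crypts, so the array labelled WT crypts 3 lay about as low as the Rb crypt arrays 1 and 3 (8.23 and 8.87), while the array labelled Rb crypts 2 read 10.25. The Rb1 difference of 1.002 ± 0.41 was not called (adjusted p = 0.061), and a dim second probe set differed by -0.12. Without WT crypts 3 the comparison called 6229 genes in place of 6803. List counts above 3 that moved by over 1.5 times without it are given beside the list, alone or within a range. Some smaller counts moved as well and are not all given. Examples are the smooth muscle list, from 1 to 2 higher, and the B and plasma cell list, from 0 to 2 lower. The crypt markers Lgr5 (-1.72 ± 0.36, adjusted p = 0.00071), Smoc2, Mki67, Sox9, Ascl2, Olfm4, Mmp7 and Lyz1 all fell in villi, and the villus markers Alpi (0.91 ± 0.22, adjusted p = 0.0029), Krt20, Apoa4, Slc2a2, Vil1 and Ada rose. Fabp1, the liver-type fatty acid binding protein, was near the top of the scale in both (14.46, 14.46 and 14.37 in villi, against 14.17, 13.91 and 14.17 in crypts) and was not called (0.34 ± 0.15, adjusted p = 0.083). Mki67 still read 8.05 to 8.41 in villi, and whether crypt tissue was left in the villus fraction was not tested. Arrays of 1 compartment correlated at 0.992 to 0.994 and arrays of different compartments at 0.958 to 0.970. The bacterial hybridization controls, added after labelling, averaged 9.94, 10.12 and 10.20 on the villus arrays and 10.51, 10.86 and 10.81 on the crypt arrays. The actin 3′ minus 5′ difference, a measure of RNA integrity, was 1.21, 0.80 and 1.36 in villi and 0.75, 0.96 and 0.80 in crypts. The same difference for Gapdh was 0.1753, -0.1335 and 0.267 in villi and -0.1695, -0.1368 and -0.1353 in crypts. The hybridization controls did not overlap between the compartments and the actin differences did. The Gapdh differences did not overlap, though villus array 2 lay close to the crypt arrays. The part of these controls in the results was not tested.

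In WT villi 3417 genes were higher and 3386 lower than in WT crypts, 18.8% and 18.6% of all genes, together 37.4%. More falls than rises were large, since 1401 genes fell and 777 rose by at least 1 (2-fold), and 245 fell and 99 rose by at least 2 (4-fold). At a difference of at least 3 the order turned, with 10 falls and 15 rises. The median over all genes was 0.08, the median of the genes that rose 0.62 and of those that fell -0.88. All 3 villus values lay on 1 side of all 3 crypt values in 9548 genes (52.5%). This held for 3307 of the genes that rose and 3342 of those that fell. A lack of overlap therefore adds little to a call. The share of calls that were higher in villi was 50.2%. It was 42.4% with arrays centred on their medians over all probe sets and 70.0% with arrays centred over the named genes, which moved the median of all genes to 0.24. In this centring, here and below, the named genes are all 18193 genes compared, not those of the naming rule. The balance of rises and falls therefore depended on the scaling, and small differences are to be read with that shift in mind.

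**Figure D1:**
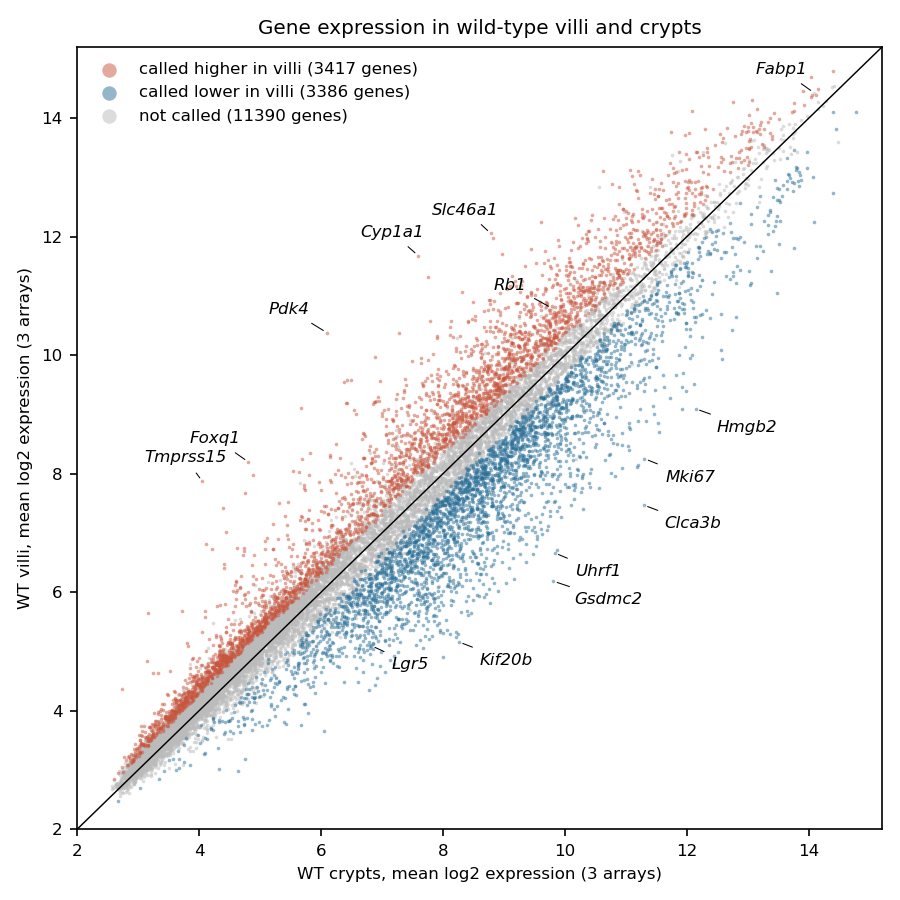
Mean log2 expression of each of 18193 genes in WT villi (vertical axis) and WT crypts (horizontal axis), 3 arrays each. Each point is a gene, coloured by its call, and the line marks equal expression. At least 1 from the line lie 1401 genes called lower in villi and 777 called higher, with Pdk4, Cyp1a1 and Tmprss15 farthest above it and Clca3b and Gsdmc2 among the farthest below.

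Pdk4, a kinase that limits the entry of pyruvate into oxidation, was among the largest rises in villi and read 10.44, 10.26 and 10.43 in villi, against 5.37, 7.16 and 5.75 in crypts (4.28 ± 0.63, adjusted p = 1.8e-05). Tmprss15 encodes enteropeptidase, the brush border protease that starts the activation of pancreatic zymogens. It read 7.25, 8.21 and 8.15 in villi, against 4.21, 3.62 and 4.32 in crypts (3.82 ± 0.50, adjusted p = 4.9e-06). The groups lay far apart for both genes, with the crypt array 2 the highest crypt value of Pdk4 and the lowest of Tmprss15. The folate transporter gene Slc46a1 read 11.63, 12.18 and 12.35 in villi, against 8.55, 8.71 and 9.08 in crypts (3.28 ± 0.34, adjusted p = 2.4e-07). Acaa1b, a thiolase of peroxisomal fatty acid oxidation, rose by 3.57 ± 0.65 (adjusted p = 0.00018). Bbox1, which makes carnitine, rose by 3.10 ± 0.40 (adjusted p = 3.6e-06). Cym, the milk-clotting protease chymosin, rose by 3.44 ± 0.46 (adjusted p = 5.6e-06) and Foxq1, a forkhead transcription factor, by 3.39 ± 0.51 (adjusted p = 2.4e-05). The retinol dehydrogenase relative Rdh16f2 (3.17), the carboxylesterase Ces1g (3.16), the mitochondrial reductase Mtarc1 (3.10), the mannose-binding lectin Mbl2 (3.09), the proton channel Otop3 (3.07) and the water channel Aqp8 (3.03) completed the genes with a rise above 3 beside the cytochrome P450 genes described later. None of these 15 genes overlapped between the groups, which the naming rule required of them.

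Clca3b, of the family of calcium-activated chloride channel regulators, was among the largest falls in villi and read 7.12, 7.98 and 7.31 in villi, against 11.40, 11.75 and 10.72 in crypts, 14.2-fold lower in villi (-3.82 ± 0.38, adjusted p = 1.2e-07). Gsdmc2, a gasdermin, read 6.56, 6.94 and 5.06 in villi, against 10.09, 9.66 and 9.67 in crypts (-3.62 ± 0.78, adjusted p = 0.00087). Villus array 3 was the lowest of the 3 villus values by over 1 for Gsdmc2. The groups did not overlap for either gene, as the naming rule required. Both belong to families of near-identical copies, whose probes may read more than 1 member. Uhrf1, which brings the maintenance methylase Dnmt1 to newly copied DNA, read 6.78, 6.90 and 6.31 in villi, against 9.73, 9.71 and 10.04 in crypts (-3.17 ± 0.24, adjusted p = 6.8e-09). Nupr1, a small stress-induced nuclear protein, fell by 3.16 ± 0.57 (adjusted p = 0.00016). Scd2, a stearoyl-CoA desaturase, fell by 2.94 ± 0.56 (adjusted p = 0.00025). The other large falls were in Kif20b, Kif20a and Tpx2 of the spindle and midzone, Esco2, Top2a, Ncapg and Hmgb2 of the chromosomes, the proliferation marker Mki67, the nucleotide enzyme Rrm2 and the less described D17H6S56E-5, all between -2.90 and -3.10.

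**Figure D2:**
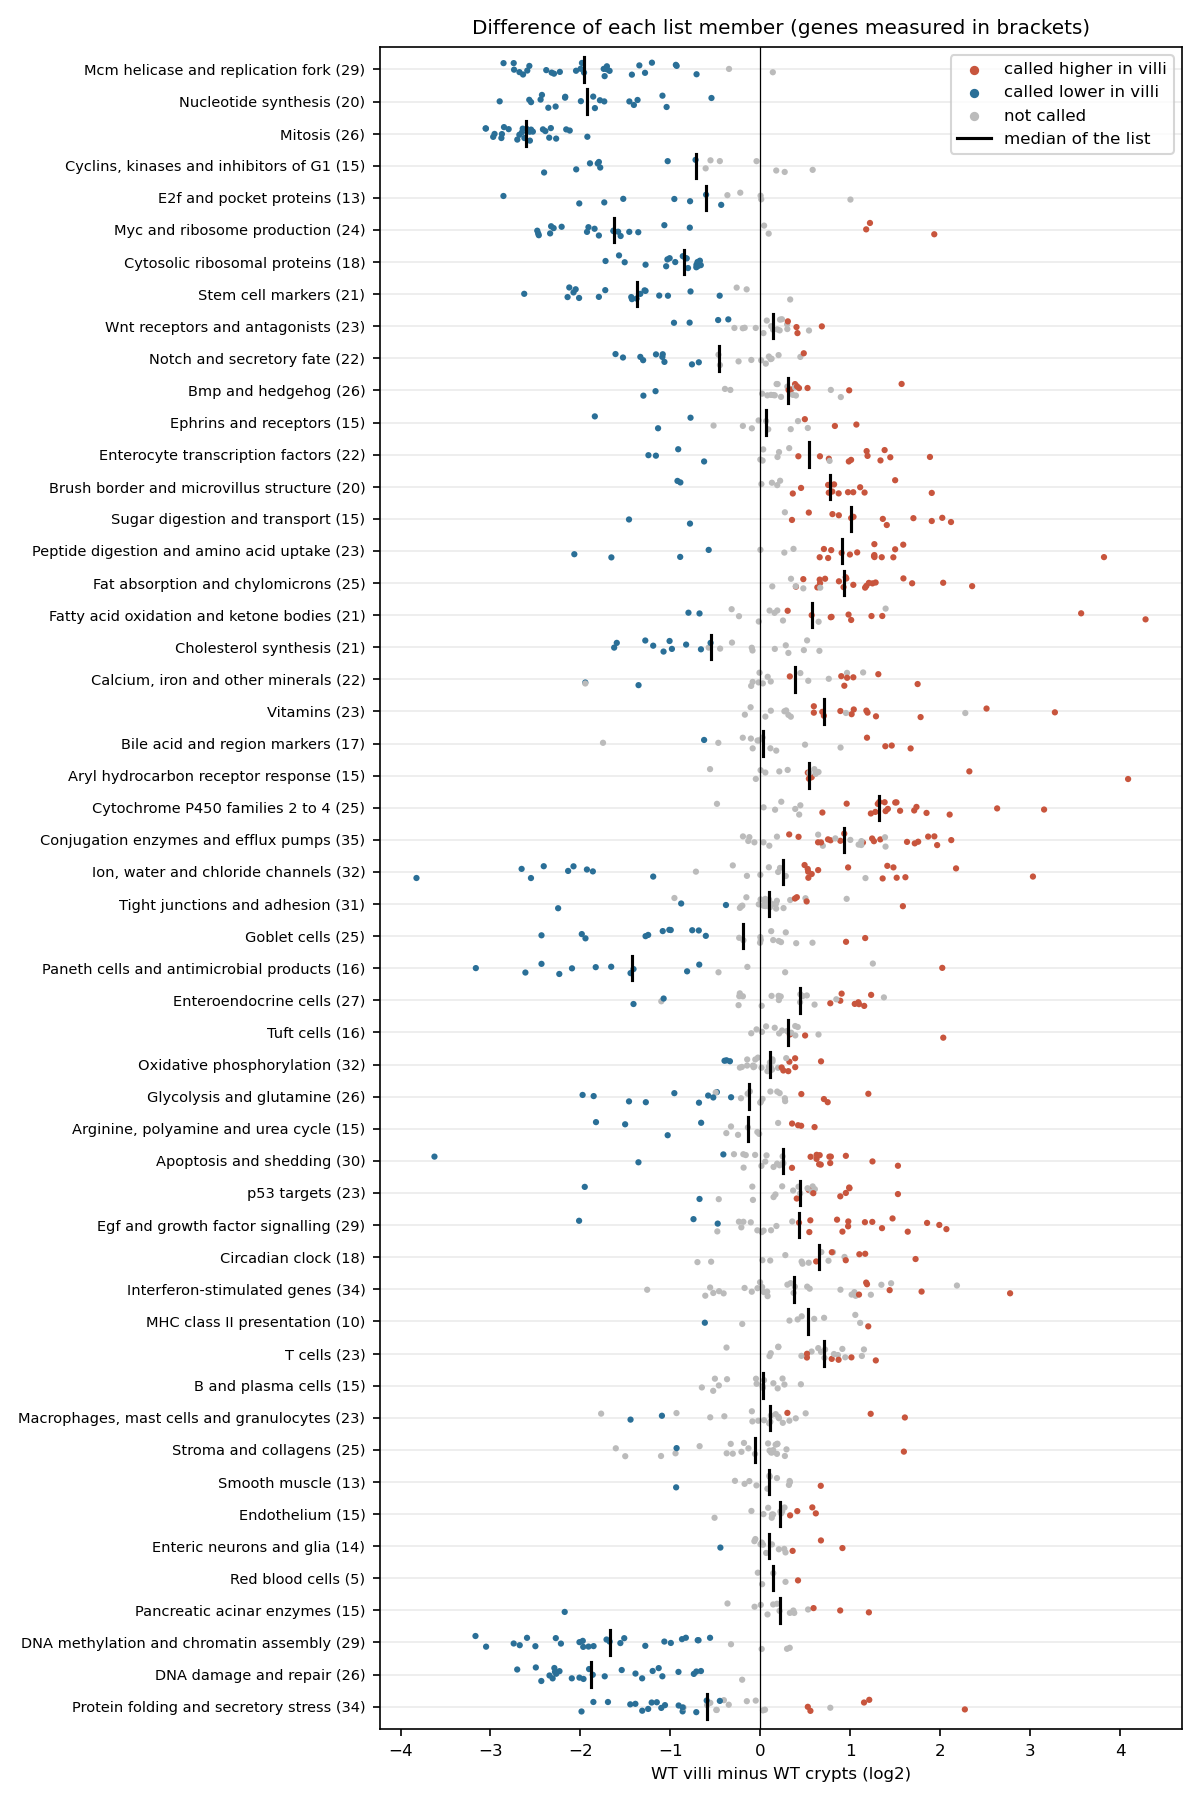
Differences between WT villi and WT crypts (log2, horizontal axis) of the members of 52 gene lists, with the number of measured genes in brackets. Points are genes, coloured by call, and black bars are list medians. The lists of division, nucleotide and ribosome production lie left of 0, and those of absorption and foreign-compound metabolism mostly right of it.

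DNA replication genes fell in villi almost without exception. Of 29 measured genes of the Mcm helicase and the replication fork 27 were lower and 0 higher, with a median of -1.96, where 18.6% of all genes were lower and the median was 0.08. Mcm3, a subunit of the helicase ring that unwinds DNA, read 6.99, 7.03 and 6.32 in villi, against 9.42, 9.30 and 9.84 in crypts (-2.74 ± 0.20, adjusted p = 4.7e-09). Pola1, the catalytic subunit of the polymerase that primes both strands, read 6.05, 6.26 and 5.60 in villi, against 8.49, 8.51 and 9.13 in crypts (-2.74 ± 0.21, adjusted p = 8.2e-09). Mcm6 read 9.29, 8.46 and 8.82 in villi, against 11.29, 11.23 and 12.08 in crypts (-2.68 ± 0.24, adjusted p = 3.8e-08). No villus value of these genes came near the crypt values, and WT crypts 3 was the highest crypt array in each. The members that were not called were Gins4, of the helicase activator (-0.35 ± 0.15, adjusted p = 0.069), and Orc1, of the origin recognition complex (0.14 ± 0.17, adjusted p = 0.55). Averaging its probe sets turned Orc1 to -0.50. All 20 measured genes of nucleotide synthesis were lower, with a median of -1.93. Among them were Rrm2, the ribonucleotide reductase subunit (-2.90 ± 0.28, adjusted p = 1.1e-07), the thymidine kinase Tk1 (-2.57 ± 0.26, adjusted p = 1.6e-07), and the purine enzymes Gart (-2.55 ± 0.28, adjusted p = 4.7e-07) and Atic (-2.44 ± 0.23, adjusted p = 6.5e-08). Neither count changed without WT crypts 3.

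The promoters of these genes were searched because E2f factors are textbook regulators of replication genes. The windows ran from 250 bases before to 50 after the transcription start (RefSeq, GRCm38.p6), and the motifs were TTTCCCGC, TTTGGCGC, TTCCCGCC and TTTCGCGC on both strands, of which overlapping matches were counted as found. A match was present in 14 of 23 fork genes with a window (60.9%), against 6.03% of the 14452 measured genes with a window and 4.0% of all 27025 genes. It was present in 320 of 2793 genes that fell in villi (11.5%) and in 131 of 2752 that rose (4.76%). A match is a description of letters and not a site shown to be bound. Stretches of 100 bases upstream of the start, 5′ to 3′ on the gene's strand, are shown for Mcm5, Mcm6 and Pola1, which were among the 4 largest falls of the list. The matches are in capitals.
Mcm5 (chr8:75109288-75109387, plus strand): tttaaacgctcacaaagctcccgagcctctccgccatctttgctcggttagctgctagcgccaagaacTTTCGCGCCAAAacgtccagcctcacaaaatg
Mcm6 (chr1:128359725-128359824, minus strand): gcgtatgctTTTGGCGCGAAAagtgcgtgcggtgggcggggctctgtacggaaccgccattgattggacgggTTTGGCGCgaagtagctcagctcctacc
Pola1 (chrX:93632266-93632365, minus strand): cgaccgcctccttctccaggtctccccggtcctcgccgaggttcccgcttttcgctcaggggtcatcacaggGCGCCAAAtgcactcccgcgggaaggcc
The match of Mcm5 joins TTTCGCGC with the reverse complement of TTTGGCGC, and Mcm6 holds a similar joined match and a further one nearer the start. None of these letters stood upstream of the start in the window of Mcm3, which fell by 2.74.

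All 26 mitosis genes fell, by 1.92 to 3.05, with a median of -2.61, the lowest of the 52 lists. Top2a, the topoisomerase that untangles chromosomes, read 8.38, 8.31 and 7.77 in villi, against 10.91, 11.10 and 11.60 in crypts (-3.05 ± 0.27, adjusted p = 4e-08). Mki67, the coat protein of mitotic chromosomes used as a marker of dividing cells, read 8.41, 8.30 and 8.05 in villi, against 10.94, 11.22 and 11.75 in crypts (-3.05 ± 0.29, adjusted p = 9.2e-08). Tpx2, which activates Aurora A on the spindle, read 5.86, 5.85 and 5.74 in villi, against 8.44, 8.63 and 9.24 in crypts (-2.96 ± 0.30, adjusted p = 2.2e-07). The compartments lay over 2 apart, and WT crypts 3 was again the highest crypt array in each. The cell cycle homology region, a short element found near the start of many genes of late division, was searched as TTTGAA and TTCGAA on both strands. It was present in 17 of 22 mitosis genes with a window (77.3%), against 17.5% of measured genes and 18.9% of genes that fell in villi. E2F motifs stood in 1 of these 22 genes (4.55%), and the homology element stood in 6 of 23 fork genes (26.1%). Upstream stretches of 100 bases of Cdk1, the kinase of mitotic entry, and of Mki67 and Top2a show these elements in capitals.
Cdk1 (chr10:69352913-69353012, minus strand): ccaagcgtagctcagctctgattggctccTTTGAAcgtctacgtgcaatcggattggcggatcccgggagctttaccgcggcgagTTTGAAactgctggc
Mki67 (chr7:135716452-135716551, minus strand): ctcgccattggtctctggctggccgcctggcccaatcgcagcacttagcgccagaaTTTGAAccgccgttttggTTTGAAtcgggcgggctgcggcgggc
Top2a (chr11:99024190-99024289, minus strand): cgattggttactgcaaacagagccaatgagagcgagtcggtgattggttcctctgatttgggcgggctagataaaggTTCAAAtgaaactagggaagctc
The Top2a stretch holds 1 of the 4 matches upstream of its start, on the opposite strand (TTCAAA), and the stretches of Cdk1 and Mki67 hold 2 each.

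Genes that copy and repair chromatin fell with them. Of 29 genes of DNA methylation and chromatin assembly 25 were lower and 0 higher (median -1.68), led by Uhrf1, the high-mobility-group protein Hmgb2 (-3.05 ± 0.20, adjusted p = 1.2e-09) and the condensin subunits Ncapd2 (-2.74 ± 0.25, adjusted p = 4.2e-08) and Ncapg2 (-2.68 ± 0.32, adjusted p = 1.5e-06). The de novo methylase Dnmt3a (-0.33 ± 0.17, adjusted p = 0.13) and the demethylating oxidase Tet2 (0.02 ± 0.18, adjusted p = 0.96) were not called. Of 26 DNA repair genes 25 were lower (median -1.88). Tipin, which steadies stalled forks, read 7.07, 7.05 and 6.94 in villi, against 9.56, 9.32 and 9.67 in crypts (-2.50 ± 0.15, adjusted p = 3.8e-10). The arrays of each compartment lay close together. Brca1 (-2.44) and the uracil glycosylase Ung (-2.34) fell as well, and Bard1, the partner of Brca1, was dim in both compartments and not called (-0.20 ± 0.22, adjusted p = 0.5).

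The regulators of the cell cycle were less uniform. Of 15 cyclins, kinases and inhibitors of G1 8 were lower and 0 higher. Ccnd1, the cyclin that starts G1, read 8.30, 7.85 and 7.88 in villi, against 10.94, 10.44 and 9.86 in crypts (-2.40 ± 0.40, adjusted p = 6.2e-05), and its kinase Cdk4 read 8.66, 8.60 and 8.71 in villi, against 10.71, 10.82 and 10.58 in crypts (-2.05 ± 0.20, adjusted p = 1.2e-07). Ccnd2 (-1.89) and Cdk2 (-1.81) also fell. The groups did not overlap in these 4 genes. The inhibitor Cdkn1a was bright in both (11.29, 11.17 and 11.64 in villi, against 10.79, 10.28 and 11.30 in crypts) and not called (0.58 ± 0.29, adjusted p = 0.12), and Cdkn2b differed by 0.18 ± 0.20, adjusted p = 0.53. Without WT crypts 3 the list held 7 lower genes and 1 higher.

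Of 13 E2f and pocket protein genes 8 were lower and 0 higher. The atypical repressor E2f8 read 6.81, 6.30 and 6.41 in villi, against 9.06, 8.92 and 10.11 in crypts (-2.86 ± 0.30, adjusted p = 2.4e-07), and its relative E2f7 fell by 2.01 ± 0.30 (adjusted p = 2e-05). The activator E2f2 read 8.10, 7.32 and 7.24 in villi, against 9.002, 9.39 and 9.47 in crypts (-1.74 ± 0.19, adjusted p = 3.9e-07), and the partner Tfdp1 fell by 1.52 ± 0.14 (adjusted p = 5.5e-08). WT crypts 3 was the highest crypt array for E2f8, E2f7 and E2f2. Among the repressor E2fs, E2f6 fell by 0.96 ± 0.13 (adjusted p = 6.4e-06) and E2f4 by 0.44 ± 0.13 (adjusted p = 0.0089). E2f3 differed by 0.01 ± 0.21, adjusted p = 0.98. E2f1 gave no single answer over its 3 probe sets. The brightest differed by -0.37 (adjusted p = 0.15 over all probe sets), another by -1.61 (adjusted p = 2.7e-07) and the third by 0.24 (adjusted p = 0.19). The brightest E2f5 probe set differed by -0.78 and a further one by -0.41, while another rose by 0.69. The values of E2f1 and E2f5 are therefore uncertain.

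**Figure D3:**
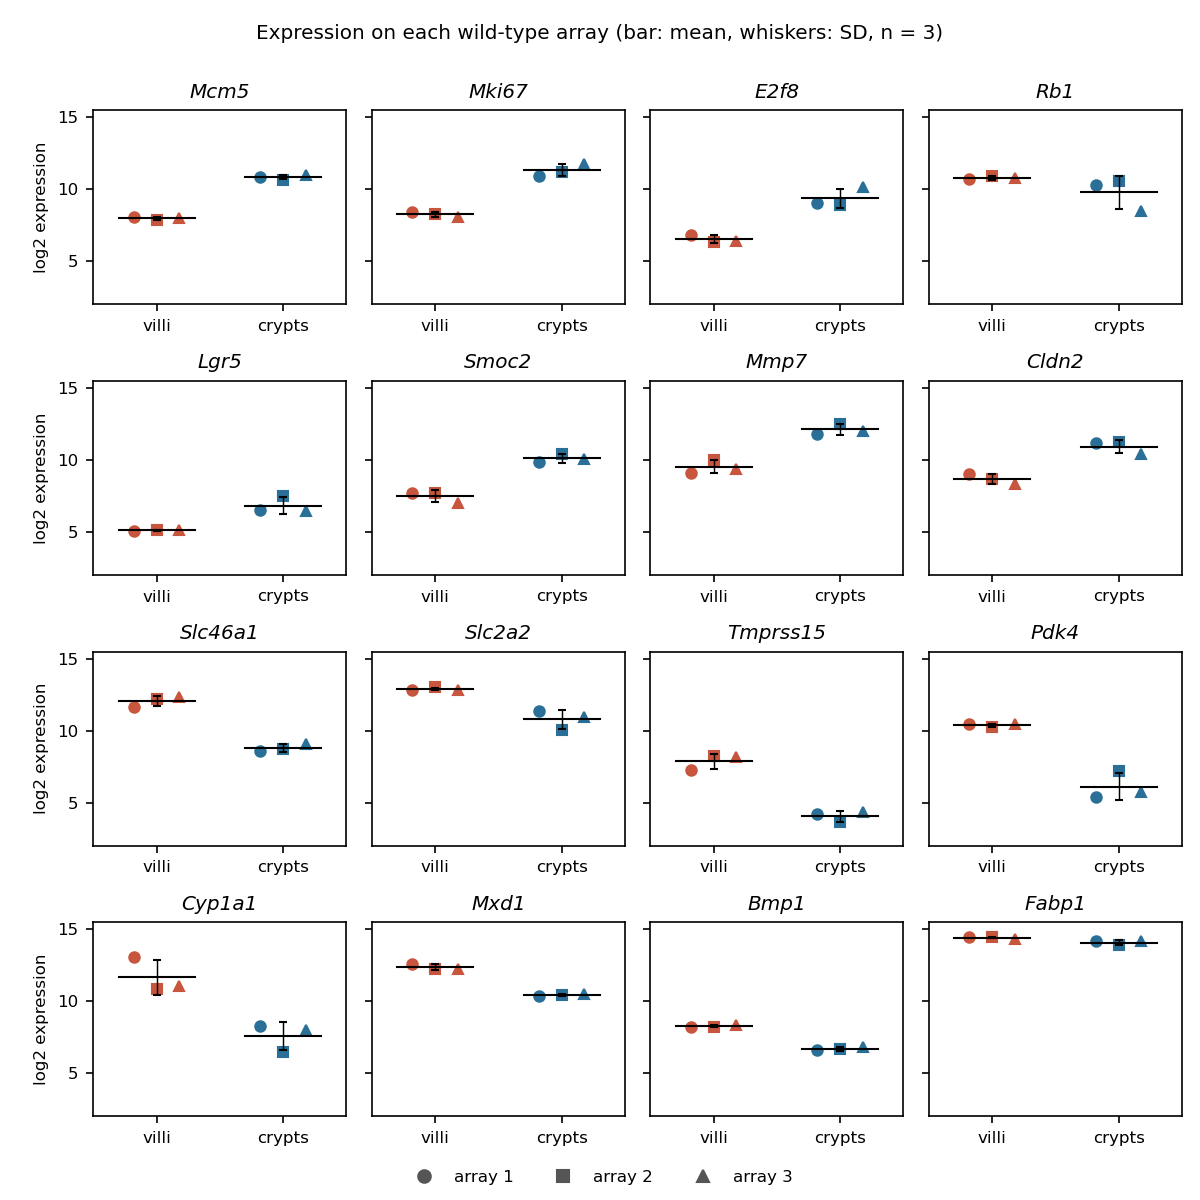
Log2 expression of 16 genes on each WT array, villi left and crypts right of each panel, with array numbers as symbols and bars for the mean and SD (n = 3). The panels show falls in villi (Mcm5, Mki67, E2f8, Lgr5, Smoc2, Mmp7, Cldn2), rises (Slc46a1, Slc2a2, Tmprss15, Pdk4, Cyp1a1, Mxd1, Bmp1), the low Rb1 value on WT crypts 3 (8.46) and Fabp1 near the top of the scale.

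Most genes of ribosome production fell, and the Myc antagonists Mxd1 and Mxi1 rose. Of 24 genes of Myc and ribosome production 19 were lower and 3 higher (median -1.63). Nolc1, a chaperone of small nucleolar particles, read 7.54, 7.34 and 6.96 in villi, against 10.07, 9.64 and 9.57 in crypts (-2.48 ± 0.24, adjusted p = 8.8e-08), and the pseudouridine synthase Dkc1 read 7.60, 7.58 and 7.15 in villi, against 10.19, 9.87 and 9.65 in crypts (-2.46 ± 0.22, adjusted p = 4.8e-08). The box C/D protein Nop56 fell by 2.34 ± 0.23 (adjusted p = 1e-07). Mxd1, which competes with Myc for its partner Max, read 12.60, 12.28 and 12.23 in villi, against 10.41, 10.42 and 10.48 in crypts (1.93 ± 0.31, adjusted p = 4.7e-05), and the related Mxi1 rose by 1.22 ± 0.28 (adjusted p = 0.0017). Max, the remaining higher gene, rose by 1.18 ± 0.26 (adjusted p = 0.0011). Myc itself fell by 2.30 ± 0.29 (adjusted p = 3.3e-06). Max and Myc are named here outside the naming rule. The groups did not overlap for any of these genes. Mnt (0.09 ± 0.14, adjusted p = 0.64) and Mycn (0.04 ± 0.12, adjusted p = 0.82) were not called, though averaging the probe sets of Mycn gave -0.62. All 18 measured genes of the cytosolic ribosomal protein list fell by 0.66 to 1.72 (median -0.85). Of all 48 measured genes with Rpl or Rps symbols, counted after their values were seen, 41 were lower and 1 higher (median -0.82). Rps19 read 11.73, 11.57 and 11.62 in villi, against 13.11, 13.26 and 13.06 in crypts (-1.51 ± 0.20, adjusted p = 5.7e-06) and Rpl8 fell by 1.28 ± 0.17 (adjusted p = 6e-06).

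Of 34 genes of protein folding and secretory stress 17 were lower and 5 higher. The mitochondrial chaperonin Hspd1 read 11.42, 11.20 and 10.93 in villi, against 13.07, 13.09 and 12.96 in crypts (-1.86 ± 0.15, adjusted p = 1.1e-08), the co-chaperone Hsph1 fell by 1.99 ± 0.45 (adjusted p = 0.0014) and the disulfide isomerase Pdia6 by 1.69 ± 0.24 (adjusted p = 1.3e-05). The pseudokinase Trib3 read 8.95, 9.19 and 9.53 in villi, against 6.88, 6.72 and 7.25 in crypts (2.27 ± 0.36, adjusted p = 3.8e-05), and Ddit3, a stress transcription factor, rose by 1.21 ± 0.21 (adjusted p = 9.3e-05). Both sets of arrays were apart in these genes. The abundant endoplasmic chaperones Hspa5 (-0.59 ± 0.24, adjusted p = 0.06) and Calr (-0.35 ± 0.18, adjusted p = 0.13) overlapped between the compartments.

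Stem cell markers fell in villi, 18 of 21 with 0 higher (median -1.38). Lgr5, the R-spondin receptor that marks crypt base stem cells, read 5.05, 5.15 and 5.09 in villi, against 6.52, 7.47 and 6.48 in crypts. Villus values were even, and WT crypts 2 was the highest. The sodium-potassium-chloride cotransporter Slc12a2 read 10.13, 10.18 and 9.68 in villi, against 11.79, 12.50 and 11.95 in crypts (-2.08 ± 0.35, adjusted p = 7.8e-05), and Cdca7 fell by 2.12 ± 0.22 (adjusted p = 2.9e-07). Hopx (-0.15 ± 0.23, adjusted p = 0.64) and the Lgr5-linked ubiquitin ligase Rnf43 (-0.26 ± 0.35, adjusted p = 0.59) overlapped between the compartments. Of 23 Wnt receptors and antagonists 4 were higher and 4 lower, so this list stood near the shares of all genes. Leaving out 1 WT array gave 1 to 3 higher and 0 to 4 lower, with 1 and 2 without WT crypts 3. Sfrp5, a secreted Wnt antagonist, fell by 0.96 ± 0.32 (adjusted p = 0.021), the receptor Fzd6 by 0.79 ± 0.26 (adjusted p = 0.022), and Wnt6 rose by 0.68 ± 0.12 (adjusted p = 9e-05). Ctnnb1, which encodes beta-catenin, was bright in both and not called (13.41, 13.52 and 13.51 in villi, against 13.31, 13.29 and 13.40 in crypts, 0.14 ± 0.11, adjusted p = 0.31).

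Of 22 genes of Notch signalling and secretory fate 10 were lower and 1 higher (median -0.46). The lower ones were the receptor genes Notch1 (-1.33 ± 0.25, adjusted p = 0.00021) and Notch2 (-1.61 ± 0.28, adjusted p = 0.0001), their target Hes1 (-1.30 ± 0.18, adjusted p = 7.1e-06) and the secretory or endocrine factors Atoh1, Neurog3, Spdef, Nkx2-2, Insm1, Foxa1 and Foxa2. Neurog3, the factor that commits progenitors to enteroendocrine fate, read 5.10, 5.12 and 5.13 in villi, against 6.65, 7.34 and 5.93 in crypts (-1.53 ± 0.38, adjusted p = 0.0032). It lay near 5.1 on every villus array and varied between the crypt arrays. Pax4, which acts later in that lineage, rose by 0.48 ± 0.14 (adjusted p = 0.011). The ligands Dll1 (0.01 ± 0.16, adjusted p = 0.97) and Jag1 (-0.45 ± 0.23, adjusted p = 0.14) were not called.

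Of 26 Bmp and hedgehog genes 8 were higher, against 18.8% of all genes, and 2 lower (median 0.31). Bmp1, a metalloprotease named for its copurification with Bmps, read 8.22, 8.24 and 8.35 in villi, against 6.60, 6.66 and 6.84 in crypts (1.57 ± 0.29, adjusted p = 0.00022), and the inhibitory Smad7 rose by 0.99 ± 0.19 (adjusted p = 0.0003). Id4 fell by 1.30 ± 0.32 (adjusted p = 0.0031) and the hedgehog receptor Ptch1 by 1.17 ± 0.21 (adjusted p = 0.00018). The Bmp targets Id1 (0.40 ± 0.26, adjusted p = 0.25) and Id3 (0.02 ± 0.22, adjusted p = 0.95) were not called. The number of higher genes ranged from 4 to 6 when 1 WT array was left out and from 4 to 12 over the scalings. Among 15 ephrins and receptors 3 were higher and 3 lower, near the shares of all genes (18.8% and 18.6%). Ephb4 read 7.21, 7.15 and 7.18 in villi, against 8.72, 9.47 and 8.88 in crypts (-1.84 ± 0.22, adjusted p = 1.8e-06) and Efna4 fell by 1.14 ± 0.18 (adjusted p = 3.4e-05), whereas Epha2 rose by 1.07 ± 0.27 (adjusted p = 0.0032) and Efna1 by 0.83 ± 0.20 (adjusted p = 0.002).

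More enterocyte regulators and brush border genes rose than fell. Of 22 enterocyte transcription factors 11 were higher and 4 lower. Prdm1, which guides the switch from neonatal to adult enterocytes, read 7.67, 7.73 and 8.17 in villi, against 6.58, 5.48 and 5.85 in crypts (1.89 ± 0.36, adjusted p = 0.00029). Creb3l3, a regulator of lipid genes, read 12.52, 12.75 and 12.66 in villi, against 11.04, 11.06 and 11.49 in crypts (1.45 ± 0.27, adjusted p = 0.0002). The xenobiotic receptor gene Nr1i2 rose by 1.38 ± 0.24 (adjusted p = 8.8e-05) and Pparg by 1.34 ± 0.23 (adjusted p = 0.00011). Klf5, a factor of dividing crypt cells, fell by 1.24 ± 0.19 (adjusted p = 2.5e-05) and the homeobox gene Cdx1 by 1.16 ± 0.19 (adjusted p = 5.1e-05). Hnf4a was not called by its brightest probe set (0.00 ± 0.10, adjusted p = 1.0), but the mean of its probe sets gave -0.66, so no direction is given for it.

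Of 20 brush border and microvillus genes 14 were higher and 2 lower (median 0.77). Treh, the trehalase of the microvillus membrane, read 12.95, 13.25 and 13.13 in villi, against 11.23, 10.76 and 11.63 in crypts (1.91 ± 0.36, adjusted p = 0.00027). Cdhr2, a cadherin that links microvillus tips, read 13.53, 13.47 and 13.48 in villi, against 12.31, 12.22 and 12.48 in crypts (1.16 ± 0.20, adjusted p = 0.00012), and the actin bundler Pls1 rose by 1.11 ± 0.22 (adjusted p = 0.00041). The keratins of the list that were lower were Krt19, which read 13.01, 12.83 and 12.96 in villi, against 13.85, 13.82 and 13.80 in crypts (-0.89 ± 0.11, adjusted p = 1.5e-06), and Krt18 (-0.92 ± 0.18, adjusted p = 0.00038). Krt8, their type II partner, differed by 0.13 ± 0.09, adjusted p = 0.25 and the brush border myosin Myo1a by 0.22 ± 0.12, adjusted p = 0.15.

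Sugar genes rose in 12 of 15 cases (median 1.01). The fructose transporter gene Slc2a5 read 11.26, 11.51 and 11.63 in villi, against 10.09, 9.24 and 9.96 in crypts (1.70 ± 0.31, adjusted p = 0.00017), and G6pc, which releases free glucose, read 9.42, 9.31 and 9.40 in villi, against 8.10, 6.95 and 7.03 in crypts (2.02 ± 0.53, adjusted p = 0.0046). Crypt array 1 was the highest crypt array for both, and no villus value reached the crypt range. Hk2, a hexokinase of dividing cells, fell by 1.46 ± 0.36 (adjusted p = 0.003), and the glucose transporter gene Slc2a1 by 0.78 ± 0.19 (adjusted p = 0.002), the only listed sugar genes that were lower. Of 23 genes of peptide digestion and amino acid uptake 16 were higher and 4 lower (median 0.90). Beside Tmprss15, the dipeptidase Ace read 11.93, 12.11 and 11.82 in villi, against 10.33, 10.55 and 10.21 in crypts (1.59 ± 0.29, adjusted p = 0.00015). The glutamine transporter gene Slc1a5 read 6.49, 6.58 and 6.42 in villi, against 8.59, 8.86 and 8.25 in crypts (-2.07 ± 0.20, adjusted p = 1.2e-07), and the glutamate transporter gene Slc1a1 fell by 1.66 ± 0.33 (adjusted p = 0.00038). The aminopeptidase Enpep was between 13.41 and 13.90 on every WT array and not called (0.27 ± 0.11, adjusted p = 0.059).

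Fat absorption genes rose in 20 of 25 cases with 0 lower (median 0.93). The fatty acid receptor gene Cd36 read 11.51, 12.03 and 11.83 in villi, against 9.43, 9.30 and 9.59 in crypts (2.36 ± 0.52, adjusted p = 0.0011). Apoc2, an apolipoprotein that activates lipoprotein lipase, read 14.02, 14.07 and 14.27 in villi, against 12.29, 11.59 and 12.37 in crypts (2.03 ± 0.36, adjusted p = 0.00014). Dgat2, which makes triglyceride, rose by 1.59 ± 0.31 (adjusted p = 0.00036) and the cholesterol exporter Abca1 by 1.69 ± 0.59 (adjusted p = 0.029). The groups did not overlap in these 4 genes. Fabp2 was at 14.29 to 14.57 on every WT array and was not called (0.13 ± 0.08, adjusted p = 0.22). Of 21 genes of fatty acid oxidation and ketone bodies 10 were higher and 2 lower, with Pdk4 and Acaa1b in front. Acaa1a, the close relative of Acaa1b, rose by 1.24 ± 0.16 (adjusted p = 4e-06) and Acox2, which shortens bile acid precursors, by 1.36 ± 0.50 (adjusted p = 0.035). The ketone enzyme Bdh1 fell by 0.80 ± 0.12 (adjusted p = 2.9e-05) and Cpt1a, the gate of mitochondrial fatty acid import, by 0.68 ± 0.18 (adjusted p = 0.0055). Cholesterol synthesis went the other way, with 10 of 21 genes lower and 0 higher (median -0.55). Sqle, a rate-limiting oxygenase of the pathway, read 8.14, 7.89 and 7.85 in villi, against 9.76, 9.39 and 9.62 in crypts (-1.63 ± 0.33, adjusted p = 0.0005), and Idi1 read 9.29, 9.29 and 9.24 in villi, against 10.86, 10.80 and 10.96 in crypts (-1.60 ± 0.27, adjusted p = 7.4e-05). Ebp (0.16 ± 0.17, adjusted p = 0.49) and Sc5d (0.52 ± 0.27, adjusted p = 0.13), of its last steps, overlapped between the groups.

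Of 22 genes of calcium, iron and other minerals 7 were higher and 2 lower, so that 40.9% were called, near the 37.4% of all genes. The transferrin receptor gene Tfrc, by which dividing cells take up iron, read 10.71, 10.23 and 9.95 in villi, against 12.32, 12.06 and 12.35 in crypts (-1.95 ± 0.24, adjusted p = 2.2e-06). The manganese exporter gene Slc30a10 rose by 1.75 ± 0.35 (adjusted p = 0.00051) and the copper transporter gene Slc31a1 by 1.31 ± 0.23 (adjusted p = 0.00013). The metallothionein Mt1 fell by 1.35 ± 0.47 (adjusted p = 0.029). Mt2 read 8.55, 8.14 and 8.04 in villi, against 9.72, 9.35 and 11.50 in crypts, with WT crypts 3 about 2 above the other crypt arrays, and was not called (-1.95 ± 0.81, adjusted p = 0.063). Of 23 vitamin genes 13 were higher and 0 lower (median 0.71). Beside Slc46a1, the thiamine transporter gene Slc19a3 read 7.91, 8.01 and 8.23 in villi, against 5.59, 4.88 and 6.13 in crypts (2.52 ± 0.50, adjusted p = 0.00041), and Tcn2, which carries vitamin B12 in blood, read 13.11, 13.01 and 13.10 in villi, against 11.84, 11.77 and 11.76 in crypts (1.29 ± 0.17, adjusted p = 4.3e-06). Cubn, the ileal receptor of the intrinsic factor complex, read 12.84, 12.84 and 12.86 in villi, against 10.47, 11.16 and 10.08 in crypts. Its groups did not overlap, but its spread over the arrays of the study was wide and it was not called (2.28 ± 1.05, adjusted p = 0.093).

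Bile acid and region markers showed 4 of 17 genes higher and 1 lower, beside 18.8% higher and 18.6% lower of all genes. In total 29.4% of the list were called, against 37.4% of all genes. Cyp27a1, which oxidises cholesterol towards bile acids, rose by 1.67 ± 0.33 (adjusted p = 0.00036). The duodenal factor Pdx1 read 5.58, 6.06 and 6.42 in villi, against 4.60, 4.19 and 4.88 in crypts (1.46 ± 0.33, adjusted p = 0.0014) and Onecut2 read 9.03, 8.86 and 8.77 in villi, against 7.14, 7.53 and 7.81 in crypts (1.39 ± 0.29, adjusted p = 0.00077). Gata4, a factor of the proximal intestine, fell by 0.63 ± 0.17 (adjusted p = 0.0065). The bile acid receptor Nr1h4 differed by -0.11 ± 0.19, adjusted p = 0.7.

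Because all mice had received a ligand of the aryl hydrocarbon receptor, genes of its response were listed apart. Of 15 genes 5 were higher, the receptor and its partner among them, and 0 lower (median 0.54). In total 33.3% of the list were called, against 37.4% of all genes. The higher genes numbered 2 without WT crypts 2, 3 without WT villi 1, 4 or 5 without any other WT array, and 11 with arrays centred over the named genes. Cyp1a1, the classic target, read 13.08, 10.87 and 11.09 in villi, against 8.28, 6.51 and 7.99 in crypts (4.09 ± 0.96, adjusted p = 0.0019). Villus array 1 stood about 2 above the other villus arrays, and the groups stayed apart by over 2. Gsta2 read 8.94, 9.06 and 9.54 in villi, against 6.92, 6.07 and 7.58 in crypts (2.32 ± 0.72, adjusted p = 0.015). The receptor gene Ahr rose by 0.57 ± 0.20 (adjusted p = 0.032) and its partner Arnt by 0.54 ± 0.13 (adjusted p = 0.0018). Nfe2l2, the oxidative stress factor, was not called (-0.05 ± 0.22, adjusted p = 0.88), nor was Txnrd1 (0.21 ± 0.13, adjusted p = 0.21), although the mean of the Txnrd1 probe sets gave -0.66. The letters GCGTG, the core of the receptor's response element, stood in 8 of 11 listed promoters (72.7%), beside 47.8% of measured genes and 60.5% of genes lower in villi.

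The cytochrome P450 genes of families 2 to 4 rose in 18 of 25 cases with 0 lower (median 1.32, the highest of the 52 lists). This count stayed at 18 whichever WT array was left out. Cyp2c55 read 12.33, 12.06 and 12.34 in villi, against 9.76, 9.23 and 9.84 in crypts (2.63 ± 0.37, adjusted p = 1.1e-05), and Cyp2c29 read 11.67, 12.35 and 11.90 in villi, against 7.57, 8.38 and 10.51 in crypts (3.16 ± 0.69, adjusted p = 0.001). The crypt arrays agreed for Cyp2c55, whereas for Cyp2c29 WT crypts 3 was over 2 above WT crypts 2. Cyp2d22 rose by 2.11 ± 0.44 (adjusted p = 0.00063) and Cyp4f13 by 1.85 ± 0.34 (adjusted p = 0.00019). Cyp2c genes are close copies of each other, and their probe sets may share signal. Of 35 conjugation enzymes and efflux pumps 19 were higher and 0 lower (median 0.93), from 14 to 21 with 1 WT array left out. The pump gene Abcc2, which moves conjugates into the lumen, read 10.56, 11.08 and 10.72 in villi, against 8.53, 8.80 and 9.13 in crypts (1.97 ± 0.30, adjusted p = 2.6e-05). The glutathione transferases Gstk1 (1.87 ± 0.30, adjusted p = 3.9e-05) and Gstm1 (1.94 ± 0.52, adjusted p = 0.0055) rose, as did the glucuronosyltransferase Ugt2b5 (2.12 ± 0.67, adjusted p = 0.017). Gstp1 was bright in both compartments (0.10 ± 0.12, adjusted p = 0.56). Ces2a read 13.24, 13.40 and 13.16 in villi, against 10.95, 11.71 and 12.99 in crypts, with WT crypts 3 close to the villi, and was not called (1.39 ± 0.56, adjusted p = 0.058).

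Channels and transporters of ions and water split between the compartments, with 14 of 32 higher and 9 lower, and 8 higher without WT crypts 2. Kcne3, the potassium channel subunit that drives chloride secretion, read 8.38, 8.44 and 8.37 in villi, against 11.06, 11.45 and 10.63 in crypts (-2.65 ± 0.36, adjusted p = 5.9e-06). Clca3a2, a relative of Clca3b, read 4.97, 5.45 and 5.22 in villi, against 7.78, 8.35 and 7.16 in crypts (-2.55 ± 0.42, adjusted p = 5.7e-05). Aqp8 went the other way and read 7.27, 7.32 and 7.67 in villi, against 4.42, 4.41 and 4.34 in crypts (3.03 ± 0.59, adjusted p = 0.00036). The compartments did not overlap for Aqp8 or Kcne3. Clca1, the goblet cell member of the Clca family, was above 13 on every WT array (0.28 ± 0.34, adjusted p = 0.55). Of 31 tight junction and adhesion genes 4 were higher and 3 lower, below the shares of all genes, with 2 higher without WT crypts 3 or WT villi 3. Cldn2, which forms a leaky pore for cations, read 9.04, 8.66 and 8.35 in villi, against 11.16, 11.24 and 10.38 in crypts (-2.25 ± 0.25, adjusted p = 4.5e-07), and Tjp3 fell by 0.88 ± 0.12 (adjusted p = 7.7e-06). Ceacam20, of the microvillus, rose by 1.59 ± 0.36 (adjusted p = 0.0014). Epcam (0.00 ± 0.13, adjusted p = 0.99) and Cldn7 (0.17 ± 0.13, adjusted p = 0.32) were not called.

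Of 25 goblet cell genes 11 were lower and 2 higher. The gel-forming mucin Muc2 read 13.08, 12.98 and 12.86 in villi, against 12.95, 13.38 and 13.30 in crypts (-0.24 ± 0.19, adjusted p = 0.35), and Tff3 (0.01 ± 0.15, adjusted p = 0.98) and Fcgbp (-0.00 ± 0.22, adjusted p = 0.99) were also not called. The Kazal-type inhibitor Spink4 read 11.91, 11.86 and 11.67 in villi, against 13.70, 13.91 and 13.67 in crypts (-1.94 ± 0.27, adjusted p = 9.7e-06). The transferase Galnt12, which starts mucin glycans, fell by 1.28 ± 0.24 (adjusted p = 0.0002) and the membrane mucin Muc4 by 1.99 ± 0.59 (adjusted p = 0.011), whereas Muc3, an enterocyte membrane mucin, rose by 1.17 ± 0.39 (adjusted p = 0.021). Paneth cell and antimicrobial genes fell in 11 of 16 cases with 1 higher (median -1.43). Mmp7, which activates defensins, read 9.12, 10.001 and 9.40 in villi, against 11.82, 12.52 and 12.01 in crypts (-2.61 ± 0.54, adjusted p = 0.00066). The ribonuclease Ang4 read 10.57, 11.70 and 10.85 in villi, against 13.37, 13.77 and 13.28 in crypts (-2.43 ± 0.76, adjusted p = 0.015), and the lipase relative Pnliprp2 read 9.51, 9.81 and 9.76 in villi, against 11.44, 12.47 and 11.88 in crypts (-2.24 ± 0.53, adjusted p = 0.0021). WT crypts 2 and villus array 2 were the highest of their groups for all 3 genes. Lyz1 was near the top of the scale on the crypt arrays, up to 14.83, and fell by 0.68 ± 0.26 (adjusted p = 0.043). Reg1 rose, at 13.59, 13.79 and 13.91 in villi, against 10.55, 11.48 and 13.19 in crypts (2.02 ± 0.45, adjusted p = 0.0013), with WT crypts 3 close to the villi, while Reg3b (0.28 ± 0.32, adjusted p = 0.54) and Reg3g (-0.14 ± 0.47, adjusted p = 0.84) overlapped.

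Of 27 enteroendocrine genes 8 were higher and 2 lower (median 0.45), so that 37.0% were called, near the 37.4% of all genes. The serotonin enzyme Tph1 read 6.95, 7.74 and 8.15 in villi, against 6.39, 6.87 and 5.88 in crypts (1.23 ± 0.31, adjusted p = 0.0037), and cholecystokinin (Cck) read 8.86, 9.24 and 9.76 in villi, against 8.29, 8.57 and 7.53 in crypts (1.16 ± 0.33, adjusted p = 0.0089). Somatostatin (Sst) rose by 1.10 ± 0.39 (adjusted p = 0.029). Tac1, the precursor of substance P, fell by 1.08 ± 0.33 (adjusted p = 0.013) and Reg4, a lectin of secretory cells, by 1.41 ± 0.37 (adjusted p = 0.0044). The granule proteins Chga (-0.19 ± 0.37, adjusted p = 0.71) and Chgb (-0.23 ± 0.30, adjusted p = 0.59) and the hormone Gip (0.47 ± 0.34, adjusted p = 0.29) overlapped between the compartments. The higher genes were 4 without WT villi 3, 5 without WT crypts 3 and up to 9 otherwise. Of 16 tuft cell genes 3 were higher, the same 18.8% as of all genes, and 0 lower, and 1 was higher without WT villi 1. Ltc4s, which makes cysteinyl leukotrienes and is also found in myeloid cells, read 9.23, 9.17 and 9.37 in villi, against 7.33, 7.10 and 7.24 in crypts (2.03 ± 0.32, adjusted p = 4.1e-05). Pou2f3, the tuft cell master factor, rose by 0.50 ± 0.14 (adjusted p = 0.0078), whereas the defining markers Dclk1 (0.39 ± 0.28, adjusted p = 0.29) and Trpm5 (0.39 ± 0.25, adjusted p = 0.23) were dim and not called.

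The lists of energy metabolism held calls in both directions, and genes of serine and asparagine synthesis fell. Of 32 oxidative phosphorylation genes 7 were higher and 3 lower (median 0.11), so that 31.2% were called, fewer than the 37.4% of all genes. The counts were 5 and 5 with arrays centred over all probe sets and 13 and 0 with arrays centred over the named genes. No direction is therefore given for this list. Without WT crypts 1 or WT villi 3 the lower genes numbered 1. Ndufa1 rose by 0.68 ± 0.11 (adjusted p = 4.2e-05). Sdha differed by -0.40 ± 0.11, adjusted p = 0.006, but by 0.13 with its probe sets averaged. Of 26 genes of glycolysis and glutamine use 10 were lower and 4 higher. The serine pathway enzymes Phgdh (6.76, 6.47 and 6.69 in villi, against 8.72, 8.98 and 8.15 in crypts, -1.98 ± 0.26, adjusted p = 5.2e-06) and Psat1 (5.60, 5.53 and 5.49 in villi, against 7.48, 7.37 and 7.33 in crypts, -1.85 ± 0.25, adjusted p = 7.9e-06) fell, as did asparagine synthetase Asns (-1.27 ± 0.19, adjusted p = 2.5e-05). The lactate exporter gene Slc16a3 rose by 1.20 ± 0.28 (adjusted p = 0.0016), and Ldha was not called (-0.00 ± 0.11, adjusted p = 1.0). Of 15 arginine, polyamine and urea cycle genes 4 were higher and 4 lower. The spermidine synthase Srm fell by 1.83 ± 0.27 (adjusted p = 1.7e-05). Cps1, which makes carbamoyl phosphate for citrulline, read 12.01, 11.81 and 11.44 in villi, against 13.24, 13.31 and 13.22 in crypts (-1.50 ± 0.18, adjusted p = 1.6e-06).

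Of 30 genes of apoptosis and shedding 13 were higher and 3 lower. The BH3-only gene Pmaip1 read 11.45, 11.52 and 11.32 in villi, against 9.78, 10.04 and 9.88 in crypts (1.53 ± 0.40, adjusted p = 0.0045), and the pore-forming gasdermin Gsdmd read 11.87, 11.87 and 11.72 in villi, against 10.71, 10.54 and 10.47 in crypts (1.25 ± 0.24, adjusted p = 0.0003). Bid fell by 1.36 ± 0.27 (adjusted p = 0.0004) beside Gsdmc2, and the caspases Casp1 (0.01 ± 0.11, adjusted p = 0.95) and Casp8 (0.07 ± 0.21, adjusted p = 0.82) were not called. Of 23 p53 targets 8 were higher and 2 lower, so that 43.5% were called, against 37.4% of all genes. Btg2 rose by 0.99 ± 0.21 (adjusted p = 0.00072) and the nuclease Aen fell by 1.95 ± 0.24 (adjusted p = 2.5e-06), while Cdkn1a was not called. Of 29 genes of Egf and growth factor signalling 15 were higher and 3 lower (median 0.43). Errfi1, a feedback inhibitor of the Egf receptor, read 11.21, 10.84 and 10.68 in villi, against 8.77, 8.95 and 8.81 in crypts (2.07 ± 0.30, adjusted p = 1.7e-05). The Erk phosphatases Dusp6 (1.85 ± 0.51, adjusted p = 0.0061) and Dusp1 (1.99 ± 0.41, adjusted p = 0.00061) rose as well. Lrig1, a receptor inhibitor and stem cell marker, read 7.58, 7.39 and 6.43 in villi, against 9.02, 9.42 and 9.01 in crypts (-2.02 ± 0.30, adjusted p = 1.7e-05). The receptors Egfr (-0.19 ± 0.13, adjusted p = 0.28) and Erbb2 (-0.21 ± 0.14, adjusted p = 0.26) were not called.

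Of 18 circadian clock genes 6 were higher and 0 lower (median 0.65), so that 33.3% were called, against 37.4% of all genes. The higher genes numbered 2 without any 1 of WT crypts 1, WT crypts 2, WT villi 2 or WT villi 3. Without WT crypts 3 they numbered 7. Dbp, a clock output factor, read 10.91, 11.54 and 11.61 in villi, against 9.04, 9.42 and 10.41 in crypts (1.73 ± 0.64, adjusted p = 0.038), and Cry2 rose by 1.17 ± 0.24 (adjusted p = 0.00065). WT crypts 3 had the highest crypt value of Dbp. The hour at which tissue was taken is not in the labels.

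Immune genes differed between arrays of 1 compartment. Of 34 interferon-stimulated genes 6 were higher, or 17.6% against 18.8% of all genes, and 0 lower. The higher genes numbered 10 with quantile normalization and 11 with arrays centred over the named genes, and with the replicate block 15 were higher and 3 lower. Ifit1 read 8.76, 9.21 and 9.61 in villi, against 7.61, 5.44 and 6.19 in crypts (2.78 ± 0.72, adjusted p = 0.0044) and Irf7, a factor of the interferon response, read 9.42, 9.66 and 9.71 in villi, against 8.28, 7.89 and 8.30 in crypts (1.44 ± 0.32, adjusted p = 0.0013). The proteasome subunit Psmb8 overlapped (11.79, 11.75 and 11.96 in villi, against 12.30, 10.91 and 11.14 in crypts). Of 23 T cell genes 6 were higher and 0 lower (median 0.71), 11 without WT crypts 1 and 3 or 4 without any other WT array. In total 26.1% of this list were called, against 37.4% of all genes. Cd3d, of the T cell receptor complex, read 8.47, 8.48 and 8.61 in villi, against 7.95, 6.96 and 6.79 in crypts (1.28 ± 0.35, adjusted p = 0.0058). Cd8a (0.71 ± 0.36, adjusted p = 0.13) and Itgae (0.86 ± 0.43, adjusted p = 0.12), markers of intraepithelial T cells, were not called, and lay within the villus range on WT crypts 1. Of 10 genes of MHC class II presentation 1 was higher, the protease Ctss (1.20 ± 0.16, adjusted p = 6.2e-06), and 1 lower. Cd74, the invariant chain, read 12.54, 9.86 and 11.25 in villi, against 13.22, 9.65 and 8.99 in crypts (0.60 ± 1.24, adjusted p = 0.74), so WT crypts 1 and villus array 1 were high and WT crypts 3 low. The list means were 9.10, 7.93 and 8.56 in villi and 9.47, 7.51 and 7.10 in crypts.

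**Figure D4:**
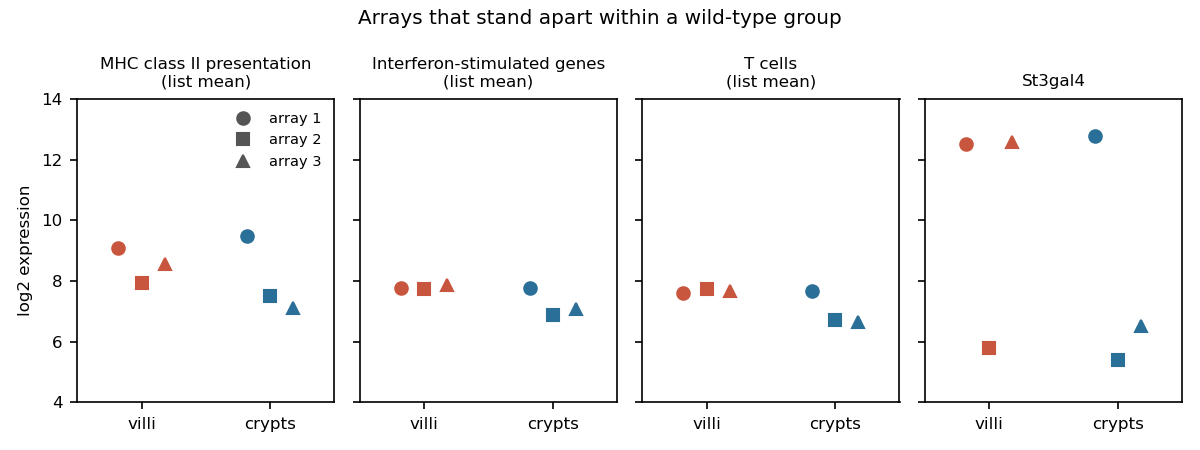
Mean log2 expression of 3 immune gene lists and the value of St3gal4 on each WT array, villi left and crypts right, with array numbers as symbols. WT crypts 1 lies above the other crypt arrays in all panels, and St3gal4 lies between 12.50 and 12.77 on 3 arrays and between 5.41 and 6.53 on the other 3.

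Markers of other tissue layers were mostly dim and few were called. Of 25 stroma and collagen genes 1 was higher and 1 lower, of 13 smooth muscle genes 1 and 1, of 15 endothelial genes 4 and 0, of 14 genes of enteric neurons and glia 3 and 1, of 5 red cell genes 1 and 0, and of 15 B and plasma cell genes 0 and 0, beside 18.8% higher and 18.6% lower of all genes. Without WT crypts 1 the endothelial list had 2 higher genes and the list of neurons and glia 1, and without WT villi 2 the endothelial list had 2. At an unadjusted limma p under 0.05 the B and plasma cell list had 0 higher and 2 lower, and over all genes 4447 were higher and 3875 lower. The mean of the stroma list was 5.78, 5.77 and 5.55 in villi and 6.12, 5.66 and 5.90 in crypts, and its member Col3a1 read 7.44, 7.07 and 7.07 in villi, against 9.39, 7.63 and 9.06 in crypts (-1.50 ± 1.07, adjusted p = 0.29). Fbln1, an extracellular matrix gene, was bright and rose (11.90, 11.84 and 11.70 in villi, against 10.13, 9.79 and 10.73 in crypts, 1.60 ± 0.33, adjusted p = 0.00062), and Vim fell by 0.93 ± 0.32 (adjusted p = 0.025). The smooth muscle markers Myh11 and Actg2 and the endothelial markers Pecam1 and Cdh5 were at most 4.73 on every WT array. Of 23 genes of macrophages, mast cells and granulocytes 3 were higher and 2 lower, so that 21.7% were called, against 37.4% of all genes. The signalling adaptor Tyrobp rose by 1.61 ± 0.37 (adjusted p = 0.0016) and Lyz2 fell by 1.44 ± 0.51 (adjusted p = 0.03). Lyz2 is a close copy of Lyz1, whose signal its probes may share. Of 15 pancreatic enzyme genes 3 were higher and 1 lower, so that 26.7% were called, again fewer than of all genes. Clps, or colipase, read 9.04, 9.58 and 9.74 in villi, against 11.42, 12.14 and 11.32 in crypts (-2.18 ± 0.64, adjusted p = 0.01), while Cpa1 was dim, between 4.16 and 4.34 (-0.06 ± 0.51, adjusted p = 0.94).

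The villus to crypt difference of wild type was then set against that of the other genotypes by testing the difference of the differences. These 3 tests share the 6 WT arrays. Of all genes 950 (5.22%) differed between WT and Rb, 201 of them more positive in WT (1.1%) and 749 more negative (4.12%). Against TKO 624 differed (3.43%), 134 positive (0.737%) and 490 negative (2.69%), and against QKO 990 (5.44%), 467 positive (2.57%) and 523 negative (2.87%). The positive share of calls was 21.2% against Rb, 21.5% against TKO and 47.2% against QKO, and with arrays centred over the named genes it was 41.6% against Rb, 439 of 828 genes against TKO and 65.6% against QKO. Without WT crypts 3 and Rb crypts 2, the arrays whose Rb1 went against their labels, 768 genes differed between WT and Rb. The 3 tests used no pairing of arrays. With the replicate number as a block 875 genes differed against TKO and 1457 against QKO. Poly-A controls, added before labelling, were 5.10 to 6.20 on the WT arrays and 8.28 to 10.1 on the TKO and QKO arrays, and the part of that split in the TKO and QKO tests cannot be told apart from genotype.

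Many division genes had a more negative difference in WT than in Rb. Of the 29 replication fork genes 25 were more negative in WT than in Rb, and all 26 mitosis genes were. The counts of these lists without WT crypts 3 and Rb crypts 2 are not given here. The fork list had a median of -1.96 in WT and -0.09 in Rb, and the mitosis list -2.61 in WT and -0.67 in Rb. In its own comparison of villi with crypts Rb had 1385 genes higher (7.61%) and 1755 lower (9.65%), TKO 1169 (6.43%) and 1636 (8.99%), and QKO 2456 (13.5%) and 3616 (19.9%). By those calls 27 fork genes were lower in WT, 1 in Rb, 26 in TKO and 28 in QKO. Mcm5 differed between the compartments by -2.86 in WT and -0.21 in Rb, a difference of -2.65 ± 0.23 (adjusted p = 2.1e-06). Rrm2 was -2.90 in WT and 0.53 in Rb. Against TKO 18 fork genes and 23 mitosis genes were more negative in WT, and against QKO 12 and 11, where the fork medians were -0.81 and -1.08 and the mitosis medians -0.87 and -1.45 in TKO and QKO. E2f8 was also more negative in WT against all 3, by -2.64 ± 0.42 against Rb (adjusted p = 0.00045), -1.96 ± 0.42 against TKO (adjusted p = 0.012) and -1.66 ± 0.42 against QKO (adjusted p = 0.025).

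The lists of absorption and ribosomes gave few such calls. In limma none of the 18 listed ribosomal protein genes differed in any of the 3 tests, and 0 of 25 fat absorption genes differed against Rb or TKO and 1 against QKO. At this number of arrays that does not show that the genotypes act alike, since the median of the ribosomal list was -0.85 in WT, -0.40 in Rb, -0.46 in TKO and -0.63 in QKO. Slc46a1 differed between WT and Rb by 1.49 ± 0.48 and was not called (adjusted p = 0.077). Stem cell markers differed in 2 of 21 cases against Rb, 1 against TKO and 0 against QKO, and Lgr5 was -1.72 in WT and -1.75 in Rb. Against QKO 13 of 23 T cell genes were more negative in WT, with list medians of 0.71 in WT and 2.36 in QKO, and 11 of 15 pancreatic enzyme genes were more positive, with medians of 0.21 in WT and -1.79 in QKO. Of 27 enteroendocrine genes 5 were more negative in WT than in QKO. Of the 35 conjugation enzymes and pumps 4 were more positive in WT than in QKO and 0 more negative.

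**Figure D5:**
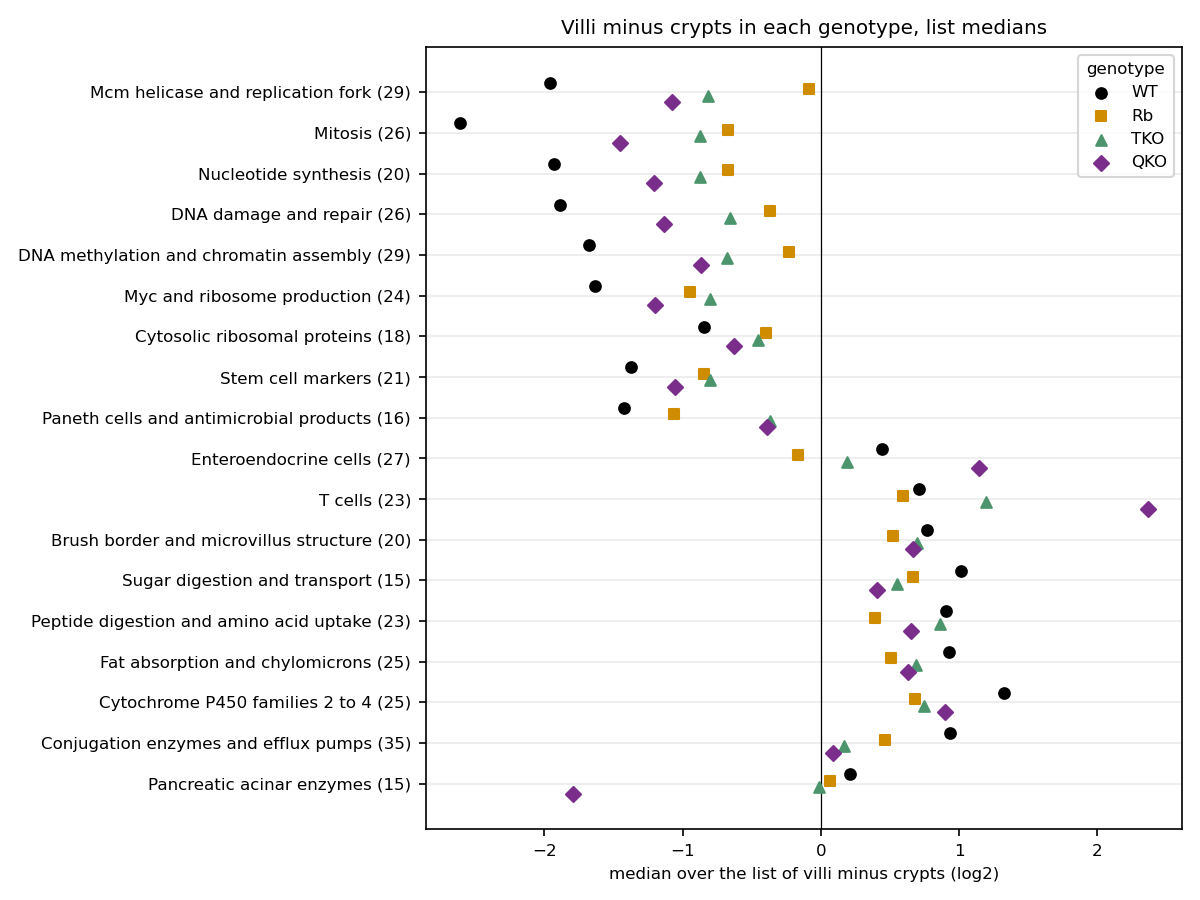
Median over each of 18 gene lists of villi minus crypts (log2, horizontal axis) in WT, Rb, TKO and QKO, with the number of measured genes in brackets. WT has the most negative median in the lists of replication and mitosis (-1.96 and -2.61), Rb lies nearest 0 in both, and QKO stands apart in T cell (2.36) and pancreatic enzyme genes (-1.79).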

How the data were processed

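Per the labels, each biotin-labelled target used 3 ug of total RNA that Trizol had extracted from villi or crypts. The authors deposited log2 values, 1 for each probe set of an Affymetrix mouse array. Their summarisation and normalization were not given in the sources used here. The number of arrays limits the precision. The platform annotation gave 1 gene for 34945 of 45101 probe sets and several for 932, while 9160 were not named here and 64 were controls. Of the symbols, 34741 were updated through Entrez identifiers. Each of 18193 genes was represented by its probe set with the highest mean over the 24 arrays. In 289 of 9010 genes with several probe sets these were called both ways.

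limma 3.58.1 in R 4.3.3 fitted 8 group means over 24 arrays, with no block, an intensity trend, 2-sided tests and Benjamini-Hochberg adjustment over all genes, and genes were called at an adjusted p under 0.05. The residual df were 16 and the prior df 4.86, and the SE pools the spread of all groups. Villus and crypt arrays of the same number in WT deviated from their group means with correlations of 0.01, 0.13 and 0.00. Those of Rb did so at 0.06, -0.01 and -0.24. The numbers were therefore not taken to pair the WT or Rb arrays, although low correlations cannot show that arrays are unpaired. In TKO (0.61, 0.55 and 0.64) and QKO (0.55, 0.25 and 0.37) every correlation was over 0.1, so the numbers were taken to pair those arrays. The fit had no block all the same, so the tests against TKO and QKO did not use that pairing.

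The comparison, its 52 gene lists, the tests and the naming rule were chosen with earlier results of these data known. The rule named the 15 largest rises and falls without overlap and above the median gene value of 6.39, up to 4 called members per list, up to 2 against its direction and the 2 brightest not called, the 3 largest differences each way per genotype test, and Rb1, E2f1 to E2f8 and the cell type markers. Genes named on other grounds, after their values were seen, are marked in the closing section or where they are named. One result that the naming rule covers is not reported here. Lists are described by counts and medians, with no set test. Promoter windows and their coordinates are RefSeq's for GRCm38.p6. Alternatives were quantile normalization, centring, no trend, removal of dim genes, averaging the probe sets of each gene, testing all probe sets, fitting only the compared groups, array weights, a replicate block and each array left out. Centring over the named genes, which used the median of all 18193 genes on each array, and leaving out pairs of arrays were added after seeing the data. Figures were drawn with matplotlib 3.10.9.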

Additional observations from a re-analysis of the deposited data

Results flagged for a closer look

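The villus to crypt difference of WT differed from that of another genotype, by the test of the difference itself, in 950 genes against Rb, 624 against TKO and 990 against QKO. Against Rb the most positive values were of Elobl (2.88), the apolipoprotein Apoa2 (2.17) and the amino acid transporter gene Slc6a20b (1.89). The most negative were of the zinc finger gene Zfp367 (-3.61), the membrane mucin Muc4 (-3.60) and Rrm2 (-3.43). Zfp367 differed between villi and crypts by -2.43 in WT and 1.18 in Rb, and Muc4 by -1.99 in WT and 1.62 in Rb, so that the directions were opposite.

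Against TKO Elobl (2.41) and Slc6a20b (2.13) were again positive, with the sulfatase Arsg (1.90). Nt5e, which makes adenosine at the cell surface (-3.38), Pnliprp2 (-2.86) and Clca3b (-2.76) were negative. Pnliprp2 differed by -2.24 in WT and 0.62 in TKO. Against QKO the positive values were of the acute-phase gene Crp (2.30), the plasma protein gene Proz (2.20) and the trypsinogen gene Prss2 (2.16), of which Prss2 was not called in WT alone (0.38 ± 0.42, adjusted p = 0.52). The negative values were of Clca4a (-5.77), adenosine deaminase Ada (-4.83) and Nt5e (-4.54). Ada read 13.35, 13.92 and 14.003 in villi, against 12.16, 11.39 and 12.57 in crypts in WT, and its difference was 1.72 in WT, 1.75 in Rb, 4.78 in TKO and 6.55 in QKO. Clca4a differed by 1.17 in WT, 0.97 in Rb, 3.63 in TKO and 6.94 in QKO. The 3 tests share the WT arrays, and those against TKO and QKO lie across the split in the poly-A controls.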

How the results depend on the processing

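Genes called in WT villi minus WT crypts ranged from 5478 to 6229 with 1 WT array left out (2613 to 2981 higher and 2847 to 3248 lower). Testing every probe set called 11674 (5346 higher and 6328 lower), leaving out WT villi 1 and 3, which leaves 1 villus array assumed to vary like the other groups, called 3667 (1351 higher), and centring over the named genes called 6644 higher and 2853 lower. The split moved with the scaling as given in the report, and 5986 of the 6803 calls were shared in direction with quantile normalization and 6270 with centring over the named genes. The WT minus Rb test called 601 to 896 genes with 1 array left out, 629 without WT villi 3 and 601 without Rb villi 3, and 1896 with array weights. Its share of positive calls was 38.3% with quantile normalization and 39.8% with array weights. The WT minus TKO test called 268 to 821, with 385 without WT crypts 2, 288 without WT villi 3, 414 and 280 without TKO villi 1 and 2, and 268 and 351 without TKO crypts 1 and 3. It called 1772 over every probe set and 1611 with array weights, and 43.3% were positive with quantile normalization and 34.1% with array weights. The WT minus QKO test called 533 to 1102, with 635 without WT crypts 2, 640 without WT villi 1 and 533 without WT villi 3, 1885 over every probe set and 1525 with centring over the named genes. With the replicate number as a block the 4 tests called 7026, 1185, 875 and 1457 genes. The numbers were taken to pair the TKO and QKO arrays but not those of WT or Rb, whose pairing is unknown. Averaging the probe sets of each gene reversed Hnf4a (-0.66), Mycn (-0.62), Orc1 (-0.50), Sdha (0.13) and Txnrd1 (-0.66), whose probe sets differ. The cause of the other changes was not tested. The brightest genes, such as Fabp1, Fabp2 and Lyz1, lie near the top of the scale, which limits what their differences can show.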

Other observations

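Genes were also counted by families of shared symbol, chosen after their values were seen. Some members, among them Slc and Polr genes, are in the lists as well. Of 19 nucleoporin genes (Nup) 17 were lower in WT villi and 0 higher, with a median of -1.20, and of 76 mitochondrial ribosomal protein genes (Mrpl and Mrps) 51 were lower and 2 higher, with a median of -0.56. Both medians stayed negative under quantile normalization and both centrings, at -0.97 to -1.27 and -0.40 to -0.62. Nup85, of the pore's outer ring, averaged 7.27 ± 0.08 in villi and 9.52 ± 0.17 in crypts (SD, n = 3), and Mrps22 averaged 8.82 ± 0.08 in villi and 10.16 ± 0.06 in crypts. Of 25 RNA polymerase subunit genes (Polr) 16 were lower and 1 higher. Of 20 subunit genes of the vacuolar proton pump (Atp6v) 9 were higher and 0 lower, though 7 and 1 with arrays centred over all probe sets. Atp6v1d averaged 10.41 ± 0.12 in villi and 9.26 ± 0.18 in crypts. Of 72 Rab genes, whose products steer vesicles, 23 were higher and 7 lower, with Rab30 at 10.58 ± 0.11 in villi and 7.78 ± 0.32 in crypts. Of 347 solute carrier genes (Slc) 123 were higher and 42 lower.

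A few genes split the arrays of 1 compartment. The sialyltransferase gene St3gal4 read 12.50, 5.78 and 12.57 in villi and 12.77, 5.41 and 6.53 in crypts. It was above 12 on all Rb and TKO arrays and below 5.7 on all QKO arrays. The defensin gene Defa31 read 12.38, 5.91 and 5.92 in villi and 6.51 to 6.57 in crypts. The SD among the 3 arrays was over 1 in 30 genes in villi and 52 genes in crypts, against a median SD of 0.13 in villi and 0.15 in crypts. The interferon-induced ubiquitin-like gene Ubd read 6.93, 6.33 and 7.41 in villi and 9.56, 5.41 and 4.85 in crypts, so that WT crypts 1 stood highest. These genes were chosen after their values were seen.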
